A study of Mus musculus with 6 samples.

Results

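Chromosome 7 was described in 5 mouse mesotheliomas through every position on it that a non-control probe of the denser array design reads, without the probes whose gene name starts with Olfr. These are 13251 positions of 235402 in the whole design, or 5.63%. The 159 Olfr probes of the chromosome, which read olfactory receptor genes, were left out. Positions are mm7 and run from base 3049177 to base 141762546. The chromosome was chosen by its measured log2 ratios in these tumours, and the positions on it by location alone, so its levels, segments and gene values are given as a description and none of them is offered as a test of whether it stands apart.

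The measurement was array comparative genomic hybridisation, where DNA of the tumour and of a reference, in different dyes, bind to 1 set of probes. Values are log2 ratios of tumour over reference, so a value below 0 means less tumour DNA than reference DNA at that position, relative to the middle of the autosomes. The tumours were ARF-129, ARF-128, ARF-112, ARF-110 and ARF-104, from a study of asbestos-induced mesothelioma in Arf knock-out mice. The study's description gives the genotype Arf (+/-) for 4 mice, and the titles name 5 tumours. The labels call the material primary mesothelioma cells except for ARF-104, where they name no cell type. Tumour DNA carried Cy5 and C57BL/6J DNA carried Cy3 on all 6 arrays, with no dye swap, so a bias of the dyes cannot be told apart from a difference in copies. The sources used here do not give strain, age or sex of the tumour mice. There is 1 group only and no normal sample of the same mice. The tumours' separate numbers were taken as separate animals, which the labels do not state.

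ARF-110 was read on a sparser design of 44050 spots, ARF-128 on both designs, and the other 3 tumours on a denser design of 243301 spots. Where 5 values follow each other without names, they run from ARF-104 to ARF-129 in the order of the tumour numbers. ARF-128 is represented by its denser array, titled ARF-128PlusMinus, unless stated. Its 2 arrays were taken as the same tumour by the number in their titles, and what PlusMinus means is not known. On chromosome 7 the sparser design reads 2832 of the same positions. The noise between neighbouring positions, an SD, was 0.77 in ARF-128, whose sparser array had 0.42, and 0.50 in ARF-129, 0.40 in ARF-112, 0.37 in ARF-104 and 0.15 in ARF-110. Means over tumours rest on 5 values, which sets their precision.

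In a solid tumour, DNA of a chromosome can be lost as a whole, as a long part, or as a short stretch, and normal cells in the sample pull every ratio towards 0. Chromosome 7 of the mouse carries a cluster of imprinted genes around Igf2 and Cdkn1c, another around Snrpn and Ube3a, and one more around Peg3, where only the copy from 1 parent is expressed. It also holds Relb and Bcl3, members of the NF-kB pathway that the study's title names, and growth genes such as Ccnd1, Hras, Igf1r and Fgfr2. Long families of similar genes, such as the kallikreins and the vomeronasal receptors, lie on it as well.

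The finding at the finest scale was a short loss in ARF-112, and the 4 probes at its ends show what was read there. They are printed 5′ to 3′ as the denser-design file gives them, with G and C in capitals, since GC content moved with the ratios as described further on. The first lies just before the loss, the next 2 are its outermost lost positions, and the last lies just after it.
chr7:117316710-117316769: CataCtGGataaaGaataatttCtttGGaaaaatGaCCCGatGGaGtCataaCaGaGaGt
chr7:117338212-117338271: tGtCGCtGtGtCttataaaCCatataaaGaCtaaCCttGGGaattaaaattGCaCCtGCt
chr7:117755118-117755177: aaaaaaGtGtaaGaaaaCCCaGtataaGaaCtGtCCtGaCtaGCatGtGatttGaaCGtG
chr7:117762000-117762059: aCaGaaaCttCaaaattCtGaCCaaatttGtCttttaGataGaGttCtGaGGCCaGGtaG
The sources used here do not give their strand. Over all members the probes had a median length of 60 bases, a shortest length of 45 and a mean GC content of 36.7%. The labels name AluI and RsaI as the enzymes that cut the DNA before labelling. Only 3 member probes (0.0226%) held the site AGCT or GTAC of these enzymes, each of which reads the same on both strands, against 0.0348% of all mapped probes.

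The level of chromosome 7 was close to 0 in 4 tumours and clearly lower in ARF-129. The mean over its positions was -0.41 for ARF-129, -0.061 for ARF-128, -0.051 for ARF-112, -0.048 for ARF-110 and -0.062 for ARF-104. The sparser array of ARF-128 gave -0.020. ARF-129 therefore held on average 75.1% of the reference signal, and the other tumours between 95.8% and 96.8%. The mean over tumours was -0.13 ± 0.16 (SD, n = 5), and without ARF-129 it was -0.055 ± 0.0071 (SD, n = 4). Below 0 lay 79.1% of positions in ARF-129, against 52.0% in ARF-128, 53.5% in ARF-112, 61.1% in ARF-110 and 55.2% in ARF-104. In every 1 Mb bin of the chromosome with a value in all tumours, ARF-129 was the lowest of the 5.

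**Figure D1:**
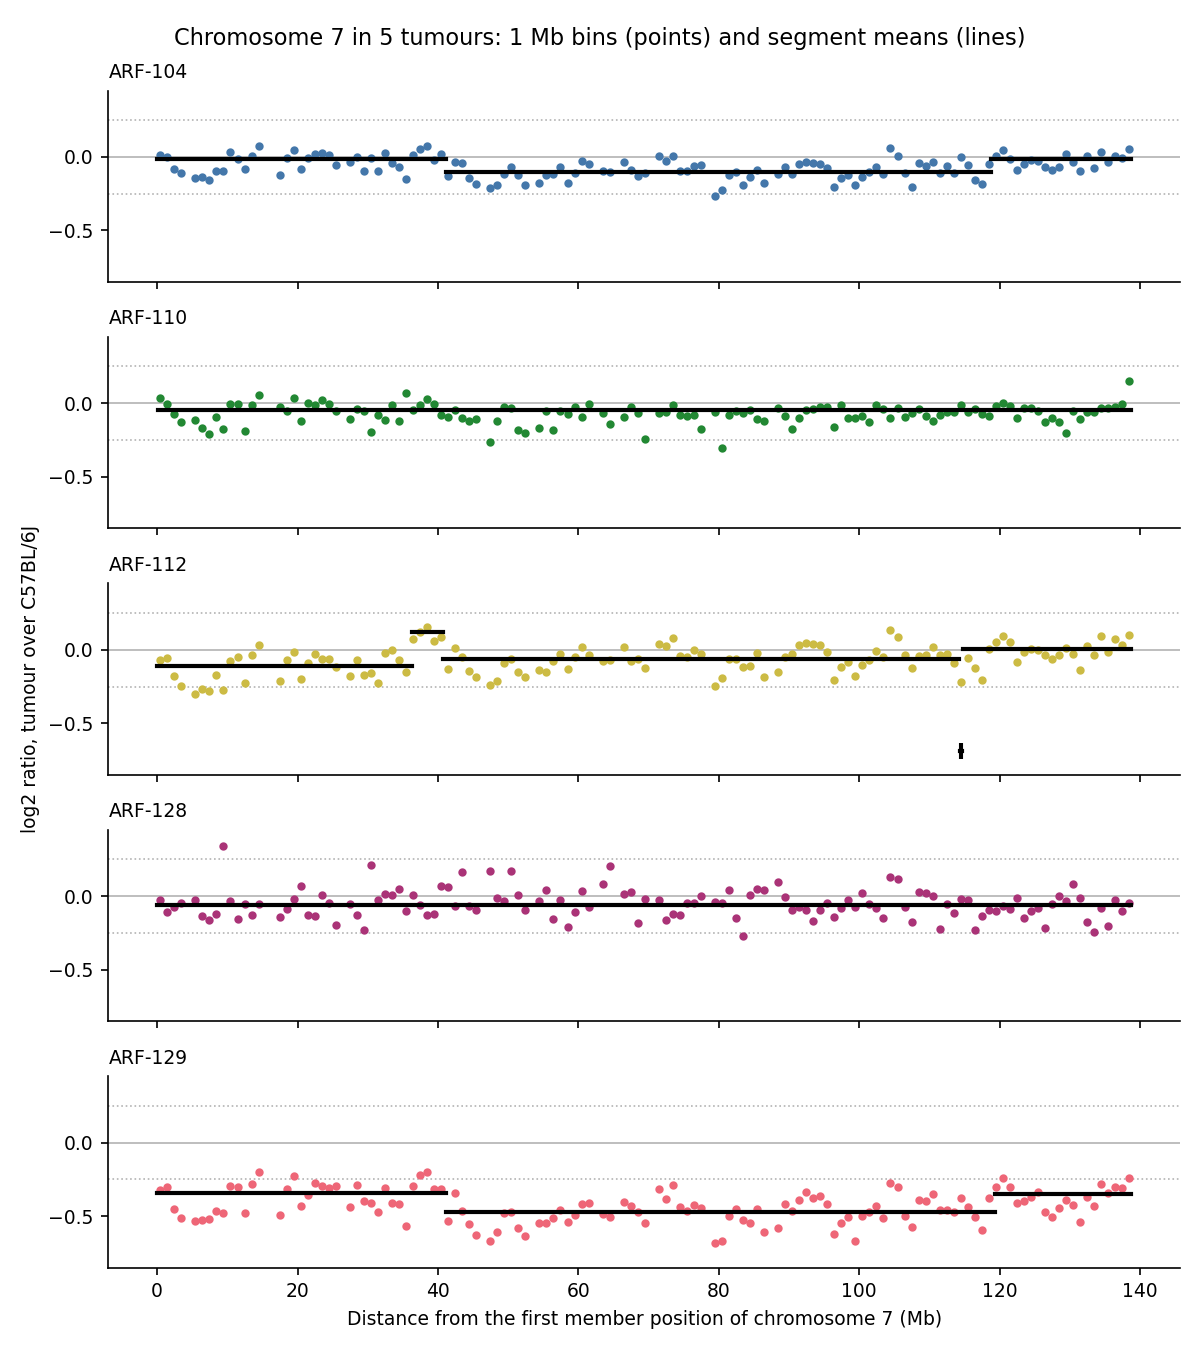
Points are means of 1 Mb bins of chromosome 7 and black lines are segment means, in log2 ratio of tumour over C57BL/6J, against the distance in Mb from the first member position, for 5 tumours. Dotted lines mark -0.25 and 0.25, the thresholds of a call. The points of ARF-129 lie lower along the whole chromosome, and the short line at -0.69 in ARF-112 is its focal loss.

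Among the 19 autosomes of ARF-129, chromosome 7 had the second-lowest mean. Chromosome 4 was lower, at -0.48, and chromosomes 12 and 5 followed at -0.37 and -0.35. The next chromosome, 9, stood at -0.15. In the other tumours chromosome 7 ranked 6 of 19 from the lowest in ARF-128, 7 in ARF-112, 9 in ARF-110 and 11 in ARF-104. On the sparser array of ARF-128 it ranked 13. The size of the loss in ARF-129 depended on background correction. With the normexp correction of the spot signals, run with an offset of 50, the mean was -0.071 in place of -0.41. Chromosome 7 was again the second-lowest autosome. Other chromosomes of ARF-129 also moved towards 0: chromosome 4 to -0.085, chromosome 12 to -0.063, chromosome 5 to -0.058, and chromosome 15 from 0.62 to 0.32. The smaller value is therefore not particular to chromosome 7.

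**Figure D2:**
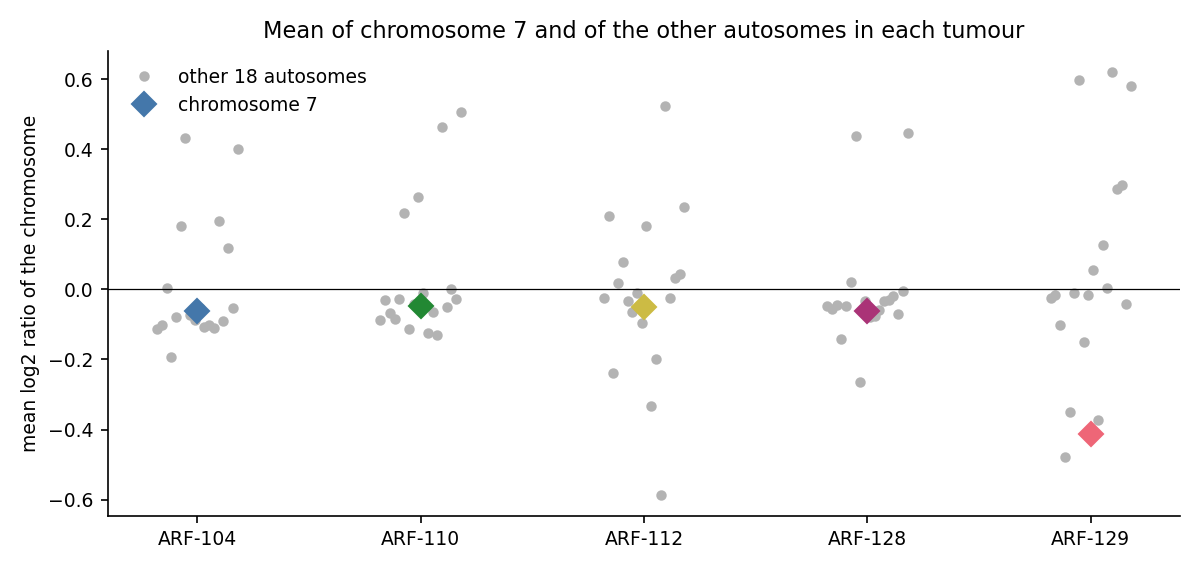
Each grey point is the mean log2 ratio of 1 of the other 18 autosomes in 1 tumour, and the diamond is chromosome 7. Chromosome 7 lies among the other autosomes in 4 tumours and at -0.41, with 3 other low chromosomes, in ARF-129.

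A segment was called lost where its mean was at or below -0.25. In ARF-129 the calls covered 100% of the 1 Mb bins of chromosome 7, where 26.6% of all autosomal bins of that tumour were called lost. In ARF-112 1 bin (0.781%) was called lost, against 15.2% of all bins. No bin was called in the other tumours, where lost segments took 1.51% of all bins in ARF-104, 1.88% in ARF-128 and 3.85% in ARF-110. No bin of the chromosome was called gained in any tumour, while gains took 20.5% of all bins for ARF-129, 7.89% for ARF-128, 8.63% for ARF-112, 12.8% for ARF-110 and 17% for ARF-104. Over the tumours the called share of chromosome 7 was 20.2% ± 44.6 (SD, n = 5), and without ARF-129 it was 0.195%.

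The loss in ARF-129 was not level along the chromosome. Its segments had means of -0.34 over the first 41.2 Mb, -0.47 over the next 78.1 Mb, from base 44224205 to base 122322539, and -0.35 over the last 19.4 Mb. ARF-104, with no call, had breaks close to the same places: -0.02 up to base 44208774, -0.10 from base 44214112 to base 121852165, and -0.02 after it. The steps were -0.13 and 0.12 in ARF-129 and -0.08 and 0.08 in ARF-104, each smaller than the 0.25 used for a call. ARF-110 and both arrays of ARF-128 gave 1 segment each.

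These long steps moved with the base composition of the probes. The middle stretch that ARF-104 defines with a lighter penalty, bases 43742821 to 121852165, had a mean probe GC content of 36.4%, against 37.1% in the rest of the chromosome. The mean ratio there minus that of the rest was -0.13 for ARF-129, 0.03 for ARF-128, -0.03 for ARF-112, -0.04 for ARF-110 and -0.08 for ARF-104. After each array was adjusted for GC content, ARF-104 and ARF-129 gave 1 segment each, at -0.07 and -0.43, and the breaks near 44 and 122 Mb were no longer found. The middle stretch was then still lower than the rest, by a difference of -0.063 in ARF-129 and -0.044 in ARF-104. When ARF-104 was subtracted from ARF-129 position by position, the difference was -0.32 up to base 46024237, -0.41 to base 61817966 and -0.36 beyond it. A step down near the first break, after base 46024237, was thus still found in this difference, and none near 122 Mb. Both alternatives were added after the values were seen.

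The dependence on GC was graded. In ARF-104 the median ratio was -0.45 for the 67 probes under 25% GC, -0.04 between 35 and 40%, and 0.34 for the 194 probes at 45% or more. In ARF-112 the same classes had -0.41, -0.03 and 0.43, and in ARF-129 -1.05, -0.38 and 0.19. ARF-110 spanned least, from -0.13 to 0.06. ARF-128 rose from -0.61 to -0.01 at 35 to 40% and was at -0.08 in the highest class. ARF-129 was the lowest tumour in each class below 45% GC, and ARF-128 was the lowest at 45% or more.

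**Figure D3:**
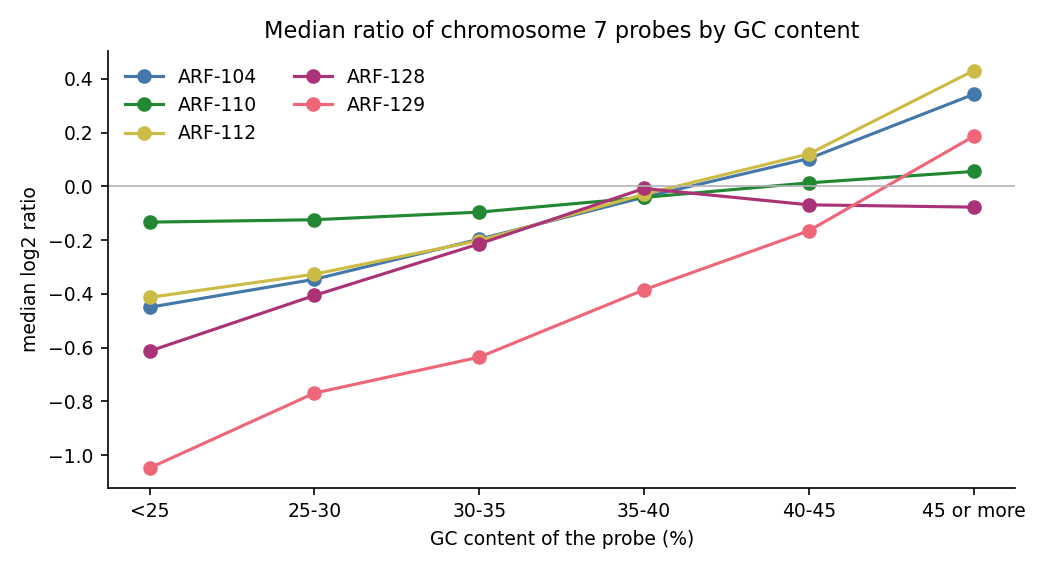
The median log2 ratio of chromosome 7 probes is plotted by the GC content of the probe, in %, for 5 tumours. The medians of ARF-104, ARF-112 and ARF-129 climb in every step, ARF-110 changes least, and ARF-129 runs below the others up to 45% GC.

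In windows of 10 Mb, ARF-129 ranged from -0.28 in the last, partly filled window to -0.56 between 50 and 60 Mb. The ranges were -0.10 to 0.00 in ARF-128, -0.15 to 0.06 in ARF-112, -0.11 to 0.05 in ARF-110 and -0.15 to 0.02 in ARF-104. No window of these 4 tumours reached the level of any window of ARF-129. The window from 50 to 60 Mb, which holds Gabrg3, Ube3a and Snrpn, had a mean probe GC content of 36.0% and was also among the lowest in ARF-104, ARF-110 and ARF-112. In ARF-128 it had 0.00 on the denser array and -0.19 on the sparser one, where it was the lowest window.

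ARF-112 had breaks of its own. Its first 36.3 Mb stood at -0.11, the next 4.33 Mb, bases 39403727 to 43737037, at 0.12, and the stretch after it at -0.06. The 4.33 Mb stretch holds the kallikrein and Siglec clusters, which code for secreted proteases and for receptors of sialic acids, and has a mean probe GC content of 37.7%. The same stretch was at -0.24 for ARF-129, -0.06 for ARF-128, -0.01 for ARF-110 and 0.04 for ARF-104. After the GC adjustment it was at 0.01 in ARF-112, and the chromosome broke once instead, with -0.16 up to base 35730867 and -0.04 beyond it. That break was also found, at the same base, when ARF-104 was subtracted from ARF-112, with -0.08 before it and 0.04 after it. It was below the threshold of a call in each case. With the GC adjustment the same 2 parts had -0.05 and -0.07 in ARF-104, -0.05 and -0.06 in ARF-110, and -0.40 and -0.44 in ARF-129.

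The 1 call under 3 Mb was in ARF-112. It covered 34 positions over 0.417 Mb, bases 117338212 to 117755177, with a mean of -0.69. That is 62.1% of the reference signal. The values of these positions ran from -1.54 to 0.31 with a median of -0.75, and 30 of 34 lay below 0. The 10 positions before the stretch had a mean of 0.05 and the 10 after it 0.23, so the fall and the return were each sharp. The gap without a probe was 21442 bases at the near end and 6822 bases at the far end.

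Over the same 34 positions ARF-128 had a mean of 0.00 and ARF-104 one of -0.09. ARF-129 had -0.53, within its chromosome-wide loss, which differed from that tumour's mean over chromosome 7 by -0.11. ARF-110 had -0.03 and the sparser array of ARF-128 -0.22, each over 9 positions. ARF-112 was lower than ARF-104 by at least 0.25 at 29 of the 34 positions, and the mean difference was -0.59. At the 10 positions before and after, the mean difference was -0.02 and 0.07. This subtraction also gave a segment with exactly the same 34 positions.

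The loss was not even inside. At 4 neighbouring positions, from base 117542398 to base 117579733, ARF-112 differed from ARF-104 by 0.07, 0.16, -0.02 and 0.00. At 1 more, base 117700886, the difference was 0.07. The remaining positions on both sides of these were lower in ARF-112. What set these positions apart was not tested.

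**Figure D4:**
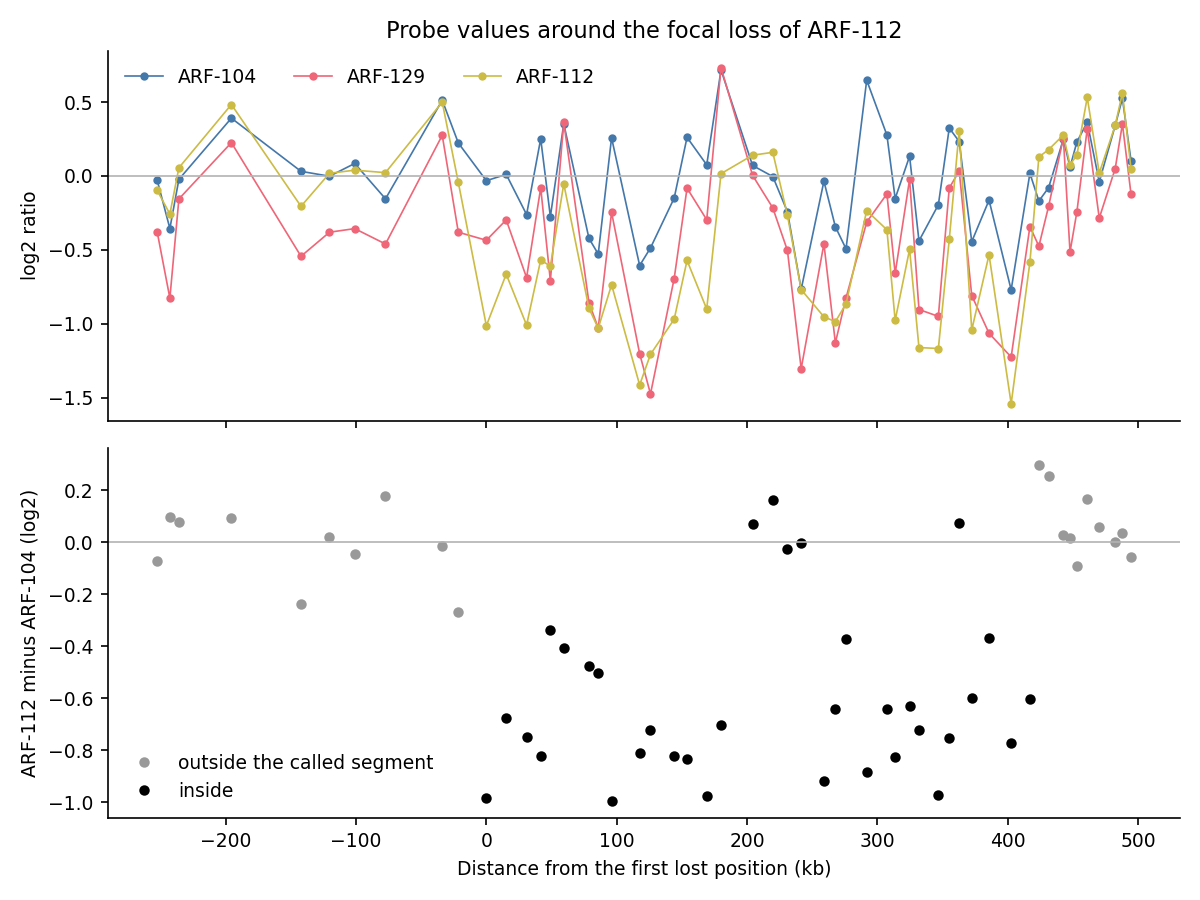
The upper panel shows log2 ratios of single positions in ARF-104, ARF-112 and ARF-129 against the distance in kb from the first lost position of ARF-112, and the lower panel shows ARF-112 minus ARF-104. Inside the called segment 29 of 34 differences are at or below -0.25, with 4 neighbouring ones near 0 in the middle.

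The probes of the stretch carry 4 gene names. AY533705, which the files describe as a partial mRNA of the heparan sulfate sulfotransferase 3-OST-2, an enzyme that modifies the sugar chains of cell-surface proteoglycans, had all of its 7 probes inside and a mean of -0.69 in ARF-112 against -0.05 in ARF-104. AK017025, a testis cDNA with no classified product, had 7 probes inside and -0.98 against -0.17. Scnn1g, the gamma subunit of the epithelial sodium channel, had its 3 probes inside and -0.94 against -0.17. AK144215, another unclassified cDNA, had 16 of 18 probes inside, with a mean of -0.56 against -0.12, and the far end of the loss lies between its probes. All positions inside that were not lower than ARF-104 by 0.25 carry this name, so its mean joins both kinds. The nearest named probe before the loss belongs to AK043969, a cDNA annotated to the same sulfotransferase. It had -0.04 in ARF-112 against 0.22 in ARF-104, a difference of -0.27 and so past 0.25 although outside the called segment. Scnn1b, the beta subunit of the same channel, lies just beyond the far end, and its 6 probes had a mean of 0.27 in ARF-112 and 0.25 in ARF-104. Exon and intron positions in mm7 were not used here.

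This call depended on the settings. It was kept with penalties of 3 and 5 log n and lost with 10 log n, with the shared positions only, and after the GC adjustment. The mean of the stretch was -0.69 after the GC adjustment and -0.86 with the shared positions only, so in both the call was lost without a smaller fall. With normexp the mean was -0.26 and no bin was called, while shorter stretches elsewhere on the chromosome made segments past the threshold in ARF-104, ARF-112 and ARF-129.

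Lighter segmentation (3 log n, at least 3 probes) gave further short features on the arrays of the sparser design. In ARF-110, 3 probes at Spint2, Ppp1r14a and Neud4 (bases 26213518 to 26254271) had a mean of 0.77. The same stretch was at -0.32 for ARF-129, 0.03 for ARF-128, -0.15 for ARF-112 and 0.08 for ARF-104, over 9 positions, and the sparser array of ARF-128 had 0.38. Another 3 probes of ARF-110 near Nars2, an asparagine tRNA ligase of mitochondria, had -0.72, and the sparser array of ARF-128 had -0.91 at the same probes. On the denser array of ARF-128 the stretch had -0.21 over 16 positions. The sparser array of ARF-128 had 1.99 over 3 probes near Nr2f2, a nuclear receptor, where its denser array had 0.34 over 10 positions. It also had a called stretch of 52 probes at -0.35, bases 5998824 to 11581501.

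With the lighter penalty of 3 log n, ARF-104 and ARF-112 broke at the same base at the start of a shallow dip. It ran from base 4601128 to base 12814532 in ARF-104, where vomeronasal receptors, zinc finger genes, Nlrp genes and the imprinted Peg3 lie. The called stretch of the sparser ARF-128 array lies inside it. The mean of the dip was -0.50 for ARF-129, -0.11 for ARF-128, -0.23 for ARF-112, -0.11 for ARF-110 and -0.12 for ARF-104, with -0.13 on the sparser array of ARF-128. The stretch after it, up to base 43737037, stood at 0.00, -0.02, -0.04, -0.07 and -0.31. Its mean probe GC content was 35.7%, against 37.3% after it. With the GC adjustment the dip differed from the rest of the chromosome by 0.00 for ARF-129, -0.04 for ARF-128, -0.11 for ARF-112, -0.02 for ARF-110 and -0.01 for ARF-104. A further stretch of 3.52 Mb, bases 80733064 to 84257303, was the lowest of ARF-129 under this penalty, at -0.68, and holds Nox4, an enzyme that makes reactive oxygen, and Tyr, which makes melanin. ARF-112 had -0.22 there, ARF-110 -0.16, ARF-104 -0.24 and ARF-128 -0.10, and its mean probe GC content was 35.1%. With the GC adjustment the stretch had -0.15, -0.11, -0.10, -0.11 and -0.54.

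Very long genes give the best reading of single genes, since many probes fall in them. Dlg2, a scaffold protein of synapses, had 160 probes on the denser design. Its mean was -0.49 for ARF-129, 0.06 for ARF-128, -0.06 for ARF-112, -0.04 for ARF-110 and -0.11 for ARF-104. Nell1, a secreted protein of bone and nerve, had 105 probes and means of -0.07, -0.09, -0.10, 0.19 and -0.51. Tenm4, a transmembrane protein of the nervous system, had 85 probes and means of -0.08, 0.05, -0.07, -0.05 and -0.43. In each of these genes ARF-129 had the lowest value. In Nell1 ARF-128 had the highest, 0.19, with 0.016 on its sparser array.

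Gabrg3, a subunit of GABA receptors, had 79 probes and -0.05, -0.05, -0.03, 0.16 and -0.45. Sox6, a transcription factor, had 70 probes and -0.08, -0.03, -0.09, 0.06 and -0.45. All 12 very long genes described here stood at or below -0.25 in ARF-129, from -0.27 in Xylt1, which starts proteoglycan sugar chains, to -0.66 in Luzp2. None of the 12 passed the test over tumours given below. Of the 187 genes with at least 10 probes, 166 were at or below -0.25 in ARF-129, where 25.5% of all such autosomal genes were. The counts were 34 in ARF-128, 16 in ARF-112 and 16 in ARF-104, against 16.1%, 15.2% and 6.6% of all such genes. The medians of the 187 genes were -0.44 for ARF-129, -0.058 for ARF-128, -0.062 for ARF-112 and -0.076 for ARF-104.

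**Figure D5:**
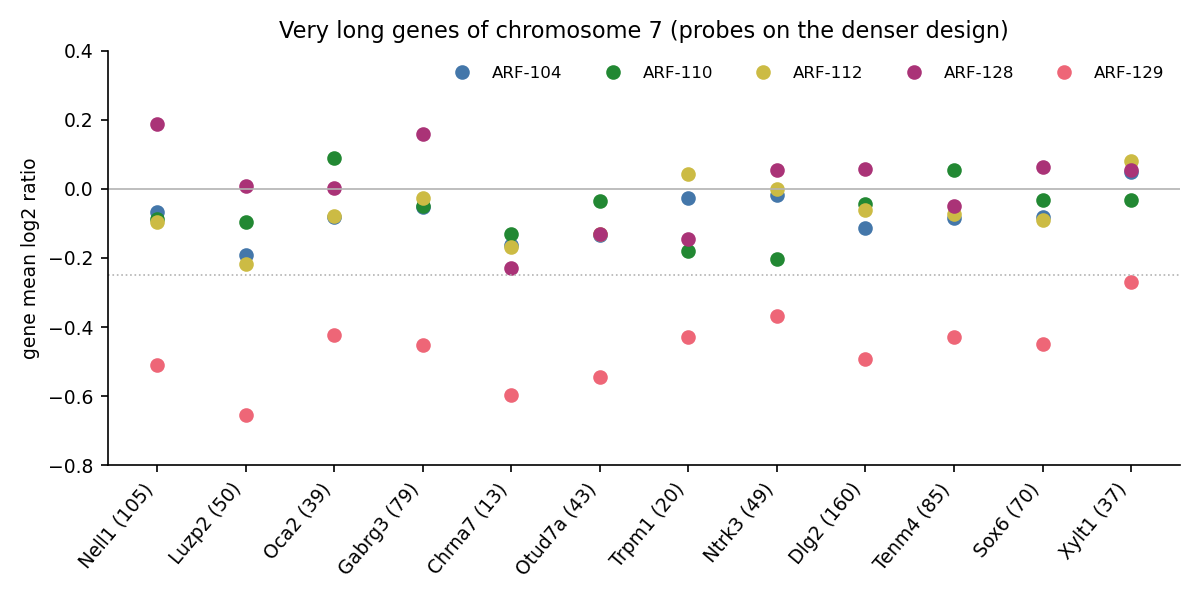
Gene means in log2 ratio are shown for 12 very long genes in order along the chromosome, 1 point per tumour, with the number of denser-design probes in parentheses and a dotted line at -0.25. The points of ARF-129 lie between -0.27 and -0.66, and each is the lowest of its gene.

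The mean of each bin and each gene over the 5 tumours was set against 0 with limma, over all autosomal bins and genes. Of the chromosome 7 bins with a value in all tumours, limma called 0 lower and 0 higher at an adjusted p under 0.05, where 0.642% of all bins were lower and 3.9% higher. With an unadjusted p under 0.05, 37 bins were lower and 0 higher, and 62 bins lay below 0 in all 5 tumours. The matching shares of all autosomal bins are not given here, so none of these counts is read as a trait of this chromosome. With the scan day as a random block 3 bins were lower and 0 higher, where 2.94% and 5.42% of all bins were. The correlation within a scan day was estimated at -0.13 for bins and 0.42 for genes. A value below 0 makes the error of a mean smaller, so these 3 are not read as losses that the block uncovers. Of 1430 genes tested, 119 were lower and 45 higher, or 8.32% and 3.15%, where 6.61% and 8.12% of all autosomal genes were. The chromosome had been chosen with these values in view, and nothing is read from either share.

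The calls on single genes did not follow the segments. Of the 164 called genes 51.2% had 1 probe on the denser design, against 29.3% of the genes tested, and 3.05% had at least 10 probes, against 12.1%. With the scan day as a random block 0 genes were called by limma, with 191 lower and 76 higher at an unadjusted p. Of all autosomal genes 0.015% were then lower and 0.015% higher. ARF-104, ARF-112 and ARF-129 were scanned on 1 day, ARF-110 and ARF-128 on others, and leaving out any one of those 3 also left 0. At an unadjusted p the lower and higher counts were then 274 and 68 without ARF-104, 284 and 67 without ARF-112, and 195 and 117 without ARF-129. Left out in turn, ARF-110 gave 275 lower and 95 higher, of 1849 genes then tested, and the sparser array of ARF-128 in place of the denser one gave 224 and 95. For these alternatives, and for counts at an unadjusted p, the matching shares of all autosomal genes are not given here. None of these counts is read as a trait of this chromosome. The behaviour of single probes on arrays of the same day was not separated from that of the genes they read.

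Of the 173 tested genes with at least 10 probes, 5 were called lower and 0 higher. Of all 1430 tested on the chromosome 119 were lower and 45 higher, as were 6.61% and 8.12% of all autosomal genes. These shares cover genes of any probe number. The share called among autosomal genes with at least 10 probes is not given here, so the 5 are not set against a like group. Tjp1, a scaffold of tight junctions, had -0.86 for ARF-129, -0.42 for ARF-128, -0.31 for ARF-112, -0.23 for ARF-110 and -0.41 for ARF-104, with a mean of -0.44 ± 0.24 (SD, n = 5; limma adjusted p = 0.034). Sae1, a subunit of the enzyme that activates SUMO, had -0.24, -0.23, -0.30, -0.41 and -0.63. Ano5, Sptbn4 and AK036620 had means of -0.39, -0.39 and -0.32. Each of the 5 was below 0 in every tumour and lowest in ARF-129.

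Of the NF-kB and innate immune list, 10 of 11 genes were tested. Of these 1 was lower and 1 higher, where 6.61% and 8.12% of all genes were. Bcl3, a nuclear partner of the p50 and p52 subunits, had 0.65 for ARF-129, 1.31 for ARF-128, 0.79 for ARF-112, 0.17 for ARF-110 and 0.78 for ARF-104 (limma adjusted p = 0.020). It was above 0 in all tumours, ARF-129 included, although that tumour's segment there stood at -0.34. Its 2 probes differed in ARF-128, at 0.060 and 2.56, and the sparser array of that tumour gave a gene mean of 0.19. After the GC adjustment the mean of Bcl3 over tumours was 0.48 in place of 0.74, and it was no longer called (limma adjusted p = 0.099). Nfkbid, a nuclear inhibitor-like protein of the pathway, had -0.21, -0.38, -0.32, -1.18 and -0.65 (limma adjusted p = 0.041). Each of these rests on 2 probes. Relb, with 3 probes, had -0.18, -0.02, -0.26, -0.12 and -0.36. In ARF-129, 6 of the 10 were at or below -0.25, as were 879 of the 1430 tested genes of the chromosome and 28% of all tested genes.

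Of the list of growth genes and oncogenes, 25 of 28 were tested. Of these 2 were lower and 1 higher, where 6.61% and 8.12% of all genes were. Pak4, a kinase of the cytoskeleton, was lower with a mean of -0.41 ± 0.22, and Ccne1, the cyclin E1 gene, with -0.42 ± 0.28 (SD, n = 5). Fgf3, a growth factor read by 1 probe, was higher with 0.71 ± 0.48. After the GC adjustment Pak4 and Ccne1 were no longer called (limma adjusted p = 0.075 and 0.058). In ARF-129, 18 of the 25 were at or below -0.25, against the same 879 of 1430 on the chromosome and 28% of all genes. The well-read ones stood at -0.37 for Igf1r (36 probes), -0.39 for Fgfr2 (17 probes) and -0.43 for Gab2 (24 probes), while these genes had between -0.24 and 0.09 in the other tumours. Igf1r and Fgfr2 are receptors of growth factors, and Gab2 is an adaptor below such receptors. Hras, the GTPase that many tumours activate by mutation, had 1 probe and 0.04, -0.10, -0.17, -0.83 and -0.81. Ccnd1, the cyclin D1 gene, is read by 1 probe on the denser design only, with 1.23 for ARF-129, 0.20 for ARF-128, 1.02 for ARF-112 and 0.65 for ARF-104. Of the same list, Fgf15, Fgf4, Fgf3 and Ano1 follow at growing distance from it. In the order of those tumours, Fgf15 (2 probes) had -0.13, -0.30, 0.17 and 0.13, and it had 1.07 in ARF-110. Fgf4 (1 probe) had -0.56, -0.72, 0.02 and -0.25, and Fgf3 had 0.58, 1.21, 0.91 and 0.90. Ano1, with 20 probes, had -0.25, -0.18, 0.03 and -0.02.

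Of the list of DNA repair and growth restraint, 17 of 21 were tested. Of these 2 were lower and 0 higher, where 6.61% and 8.12% of all genes were. Lig1, the ligase that joins DNA in replication, had 6 probes and a mean of -0.37 ± 0.20, and Ppp1r15a, a phosphatase subunit induced by stress, 1 probe and -0.64 ± 0.45 (SD, n = 5). Neither was called after the GC adjustment (limma adjusted p = 0.068 and 0.060). Blm, a helicase, had -0.12, -0.10, -0.13, -0.34 and -0.44. Mgmt, which removes alkyl groups from DNA, had 22 probes and -0.05, -0.07, -0.01, 0.07 and -0.47. Eed, a Polycomb subunit, had -0.04, 0.08, 0.16, 0.02 and -0.23. In ARF-129, 7 of the 17 were at or below -0.25, a smaller share than the 879 of 1430 on the chromosome and a larger one than the 28% of all genes.

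Of the imprinted genes, 22 of 26 were tested. Of these 2 were lower and 0 higher, where 6.61% and 8.12% of all genes were. Kcnq1, a potassium channel gene of the distal cluster with 40 probes, had -0.02, -0.09, -0.02, -0.05 and -0.43. Usp29, of the Peg3 cluster with 30 probes, had -0.10, -0.06, -0.21, 0.09 and -0.52. Ube3a, a ubiquitin ligase of the central cluster with 10 probes, had -0.26, -0.14, -0.30, 0.16 and -0.75. The called segments of ARF-129 cover all 3 clusters, and copies from the mother and the father cannot be told apart by these ratios. Genes of the distal cluster with few probes differed in that tumour. Igf2 (3 probes) had -0.11, Cdkn1c (1 probe) 0.02 and Tssc4 (3 probes) 0.05, while Cd81 (3 probes) had -0.40 and Nap1l4 (5 probes) -0.78. Zim1 was lower with a mean of -0.45 ± 0.24, and Nap1l4, a histone chaperone, with -0.41 ± 0.24 (SD, n = 5). With the shared positions only Nap1l4 had 0.06. In ARF-129, 13 of the 22 were at or below -0.25, near the share of 879 of 1430 on the chromosome, where 28% of all genes were.

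The median of the gene means was -0.17 in the NF-kB list, -0.11 in the growth list, -0.10 in the repair list, -0.08 in the imprinted genes and -0.12 in the very long genes. It was -0.11 over all tested genes of chromosome 7 and -0.01 over all autosomal genes.

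Families of similar genes were read unevenly. Of the 153 tested genes in the listed families, 15 were lower and 4 higher, near the shares of 8.32% and 3.15% on the chromosome, where 6.61% and 8.12% of all genes were. Probes of such genes can bind DNA of their relatives, so a value may not belong to the named gene. Among the kallikreins, 2 of 16 were lower and 2 higher. Klk1b5, with 1 probe, had -1.39, -0.19, -1.33, -1.57 and -1.72, while Klk6, with 1 probe, had 0.84, -0.01, 0.94, 1.44 and 0.74. Of 9 Nlrp genes 3 were lower: Nlrp2 (7 probes) with a mean of -0.44 ± 0.24, Nlrp5 (8 probes) with -0.42 ± 0.24, and Nlrp10 (2 probes) with -0.33 ± 0.13, the last not called after the GC adjustment (limma adjusted p = 0.060). Of 63 Zfp genes 5 were lower and 1 was higher.

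The genes with the most extreme means, among those with at least 2 denser and 1 sparser probe and the same sign in 5 tumours, were read by few probes. The lowest were 2900092C05Rik at -0.84, Serpinh1, a chaperone of collagen, at -0.80, and Nup98, a nuclear pore protein, at -0.76. Zfp606, Zfp30, AK030117, Eef1akmt2, AK049951, Fsd2 and Chid1 lay between -0.68 and -0.60. The highest were Bcl3 at 0.74, Slc5a2, a glucose transporter of the kidney, at 0.55, and Calm3, a calmodulin gene, at 0.52. Gatd1, Dmpk, Vmn1r64, Apoc2, BC042662, Umod and AK088692 lay between 0.50 and 0.43. BC042662 and Umod did not pass the test (limma adjusted p = 0.061 and 0.055). After the GC adjustment none of the highest 10 was called, with limma adjusted p from 0.057 to 0.20, while each of the lowest 10 was. The probes of the highest 10 had a mean GC content of 41.6% and those of the lowest 10 had 35.3%, against 36.7% over all members.

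The probes of Bcl3 and Nup98 are printed with G and C in capitals. Of the lowest genes named above, Nup98 had the lowest mean probe GC content, 30%. Eef1akmt2, Fsd2 and Chid1 had 36.8%, 37.1% and 37.8%, above the 36.7% of all members, and the rest lay below it.
Bcl3, chr7:17494821-17494869: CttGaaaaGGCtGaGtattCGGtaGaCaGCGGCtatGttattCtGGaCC
Bcl3, chr7:17502554-17502599: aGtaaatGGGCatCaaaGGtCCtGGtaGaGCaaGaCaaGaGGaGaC
Nup98, chr7:98238567-98238626: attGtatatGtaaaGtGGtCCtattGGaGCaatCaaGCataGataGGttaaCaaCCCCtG
Nup98, chr7:98251201-98251260: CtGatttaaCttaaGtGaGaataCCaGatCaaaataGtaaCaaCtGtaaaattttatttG
Nup98, chr7:98254687-98254746: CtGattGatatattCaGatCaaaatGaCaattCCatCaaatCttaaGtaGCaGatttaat
The Bcl3 probes have 46.9% and 47.8% GC and the Nup98 probes 38.3%, 25% and 26.7%. Within Nup98 the probe of 26.7% had -1.20, -0.51, -1.64, -1.33 and -2.16, and the probe of 25% had -0.44, -0.10, -0.31, -0.27 and -0.88, so probes of like GC content differed within the gene.

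At 1 position of chromosome 7, of 27 on all autosomes, the ratio was at or below -2 on all 4 denser arrays. It lies at bases 95867873 to 95867932, beside Spcs2, a subunit of the signal peptidase, and carries no gene name. Its ratio was -4.42 for ARF-129, -4.91 for ARF-128, -3.39 for ARF-112 and -3.14 for ARF-104. ARF-110 was not read there. The position before it had -0.29, 0.44, 0.12 and 0.09 in the same order, and the one after it -0.79, -0.41, -0.17 and -0.45. Further on, of the probes that read Spcs2, the one at base 95878036, of 18.3% GC, had -2.08, -1.12, -1.29 and -0.91, and the one at base 95888162 had -1.04, -1.45, -0.91 and -0.74. With normexp the 5 positions from base 95867873 made a called segment in ARF-112 at -0.82 and in ARF-129 at -0.73. The sequences of the 3 probes, with G and C in capitals, have 35%, 36.7% and 35% GC, near the mean of all members.
chr7:95864133-95864192: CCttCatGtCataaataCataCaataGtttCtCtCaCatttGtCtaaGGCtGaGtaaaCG
chr7:95867873-95867932: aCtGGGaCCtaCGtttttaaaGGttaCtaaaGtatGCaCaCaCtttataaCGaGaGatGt
chr7:95871680-95871739: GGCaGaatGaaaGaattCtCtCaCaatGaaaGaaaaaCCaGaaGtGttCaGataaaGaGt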

How the data were processed

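Genomic DNA of 5 tumours was read on 6 two-colour Agilent arrays. Per the file headers, the authors derived processed intensities of both dyes and a log10 ratio per spot with Agilent Feature Extraction, version 8.5.1.1 for the sparser design, 9.5.3.1 for the denser array of ARF-128 and 9.1.3.1 for the other 3. The authors' deposited value table holds the same ratios as log10 (sparser) and log2 (denser) values, with column medians from 0 to 0.0491, and was used as an alternative. The build mm7 is stated in 1 file header and was used for all arrays through probe names.

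The log2 of red over green intensity was taken without control spots and spots marked as outliers, repeat spots of a probe were averaged, and the autosomal median of the array was subtracted. Segmentation was exact penalised least squares (penalty 5 log n, at least 5 probes), with calls at 0.25. Bins of 1 Mb and genes were tested with limma 3.58.1 (intercept, eBayes, Benjamini-Hochberg) in R 4.3.3 (statmod 1.5.0 for the block). The rest ran in Python 3.11.15 with pandas 2.3.3, numpy 2.4.6, matplotlib 3.10.9 and numba 0.67.0. Scripts were tested on simulated data. Of 1849 gene names on the chromosome, 1189 were matched by accession, 22 by synonym and 17 by symbol to a RefSeq table of GRCm38.p6, which served for names alone. The other 621 stand as the files give them.

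The members and the gene lists were chosen with earlier results of these data known, and 1 gene of the list of very long genes is not reported here. List genes were to be named where called by a segment or by limma. Since the loss of ARF-129 covers the whole chromosome, this takes in every list gene, so those past limma, the best read and the extremes are given and the others are counted. The 10 highest and 10 lowest genes, genes at boundaries of at least 0.25 and genes in calls under 3 Mb were also named. Spcs2, Tjp1 and the other genes with at least 10 probes, the neighbours of Ccnd1 and the features of the lighter segmentation were named after their values were seen. Alternatives were normexp, the deposited table, other arrays for ARF-128, shared positions, dim or outlier spots, centring on the mean, segmentation settings, scan day and each tumour left out, with a GC adjustment and subtraction of ARF-104 added later.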

Additional observations from a re-analysis of the deposited data

Results flagged for a closer look

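In 3 of 47 results looked at, 1 tumour stood far from the other 4, by a gap to its nearest neighbour above Dixon's 95% critical value of 0.71 of the range; chance marks about 1 in 20 such groups. ARF-129 had a chromosome 7 mean of -0.41, where the others lay between -0.06 and -0.05. ARF-129 also had a called share of 100%, where the others had 0 to 0.781%. This share rests on the same ratios as the mean, so these flags are not separate. The chromosome was chosen by those ratios, so neither flag is a test of it. Klk1b5, read by 1 probe, had -0.19 in ARF-110, where the others lay between -1.72 and -1.33. ARF-110 was read on the sparser design only, and at this probe the sparser array of ARF-128 had -0.87 where its denser array had -1.57. The part of the array design in this difference was not tested.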

How the results depend on the processing

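The chromosome 7 mean over tumours was below 0 under every alternative run, from -0.15 to -0.055 with each tumour left out in turn, where the value furthest from the rest was that without ARF-129. It was -0.02 with normexp, where ARF-104 had 0.0050 and ARF-128 0.024, while ARF-110, ARF-112 and ARF-129 stayed below 0. On the shared positions alone ARF-128 had 0.0030 and the other tumours were below 0. The called share was 0.195% to 25.2% with a tumour left out, 14.2% at a threshold of 0.35 and 0 with normexp, for which the threshold of 0.25 was kept. Of lower and higher bins by limma, 9 and 1 were called with the shared positions only, 7 and 0 with the sparser array of ARF-128, 1 and 0 with the mean of its arrays, 3 and 0 with the scan day as a block, and 0 without any one tumour. Of lower and higher genes, 51 and 53 were called with normexp, 203 and 70 with the shared positions only, 224 and 95 with the sparser array of ARF-128, 249 and 92 with the mean of its arrays, 139 and 17 with the GC adjustment, and 0 and 0 with segment means or the scan day as a block. With a tumour left out they ran from 0 to 275 and from 0 to 95, and without ARF-110 more genes were tested. Shares over all autosomal bins and genes are given above for the main values and the scan day only. The other counts are therefore not read as traits of this chromosome. Genes above 0 turned below 0 when each took its segment's mean: -0.11 for Bcl3, Calm3, Dmpk, V1rd11 (Vmn1r64), Apoc2, AK088692 and Zfp579, -0.094 for Slc5a2, Pddc1 (Gatd1) and Fgf3, and -0.069 for Klk1b11 and Klk6, which follows from averaging over the segment. With the shared positions only, Nap1l4 had 0.056 and Zfp526 0.18. The cause of the other changes was not tested. The denser array of ARF-128 had the highest noise between neighbouring positions, an SD of 0.77, and the lowest red signal, 4.11 times its background. No paired analysis was possible because the tumours form 1 group.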
